A study of Rattus norvegicus with 46 samples.

Results

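The 44 ribosomal protein genes on a rat oligonucleotide array were followed through 5 models of cardiac hypertrophy and in the neonatal heart. A gene was taken as a member when a probe set (the short oligonucleotides that together read a transcript) was annotated to a single symbol that begins with Rpl or Rps and a digit, or is Rpsa or begins with Rplp; the S6 kinases, whose symbols begin with Rps6k, were left out. This rule found 64 of the 8740 probe sets, and for each of the 17 genes with several of them the one with the highest mean signal over all arrays was used. Of the 44 symbols, 26 stand for proteins of the large subunit (Rpl, Rplp) and 11 for proteins of the small subunit (Rps, Rpsa). The other 7 are related genes: 5 carry the symbols of paralogs or copies (Rpl3l, Rps27l, Rpl36al1, Rpl19l4, Rplp1l3), and 2 are named as pseudogenes (Rps2-ps1, Rps4x-ps9). A further 40 ribosomal protein probe sets match several symbols at once, usually a gene and its pseudogenes, and were kept apart.

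Left ventricular RNA of male Wistar rats had been pooled, each pool hybridised to its own array, 46 arrays in all. Pressure overload came from a titanium clip on the ascending aorta and was sampled at 6, 12 and 16 weeks on 2 arrays each and at 30 weeks on 4 arrays. Myocardial infarction, made by ligating the left coronary artery, was sampled at 3 and 9 weeks on 4 arrays each, with only large transmural infarcts kept and the scar removed before extraction. Volume overload from a shunt between aorta and vena cava was sampled at 3 and 8 weeks on 2 arrays each. Every surgical time point had 2 sham arrays of its own. Angiotensin II and Ditpa (3,5-diiodothyropropionic acid, an analogue of thyroid hormone) had been given for 2 weeks, 2 arrays each. Both were set against the same 2 vehicle arrays, labelled as an infusion of saline. The study's methods give pumps with vehicle as the control of angiotensin II and saline as that of Ditpa, so this group may not match both. The neonatal hearts, on 2 arrays, were collected 3 days after birth and have no control of their age, so they were set against the mean of the 9 adult control groups; age, pooling and day of work cannot be told apart there. In all, 26 arrays were hypertrophic and 18 were adult controls.

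Ribosomal proteins form the protein part of the ribosome, each usually present as a single copy in the large or the small subunit, and cells make them in step with ribosomal RNA when they grow. Their messenger RNAs begin with a run of pyrimidines, the terminal oligopyrimidine motif, through which the growth kinase mTOR acts on their translation, so that much of their control lies outside the amount of RNA that an array reads. Growth of the heart muscle requires new ribosomes, both in the neonatal period and under load. A few members have paralogs that differ by tissue. Best known in muscle is Rpl3l, a form of the large-subunit protein Rpl3 found in heart and skeletal muscle, where it takes the place of Rpl3 near the peptidyl transferase centre.

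The start regions of 4 members are shown because the results below turn on them: Rpl3 and Rpl3l lay on opposite sides of the adult level in the neonatal heart, and Rps24 and Rps10 were among the members that rose there. Each stretch runs from 60 bases before to 20 bases after the transcription start given by RefSeq for the rat build GRCr8. Capitals mark the letters searched for, CTTTCC or CTCTTT within 10 bases of the start on the sense strand and CCGGAAG, a core of ETS factor sites, on either strand.
Rpl3, chr7:113507971-113508050, minus strand: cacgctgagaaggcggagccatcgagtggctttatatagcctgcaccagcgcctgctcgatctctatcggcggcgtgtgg
Rpl3l, chr10:14258386-14258465, plus strand: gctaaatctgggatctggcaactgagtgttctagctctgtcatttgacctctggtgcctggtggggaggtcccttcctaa
Rps24, chr16:96457-96536, plus strand: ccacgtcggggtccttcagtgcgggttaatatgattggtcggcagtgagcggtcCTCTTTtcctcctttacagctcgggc
Rps10, chr20:5700725-5700804, minus strand: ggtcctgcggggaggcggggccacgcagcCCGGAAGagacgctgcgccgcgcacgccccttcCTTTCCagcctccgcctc
The stretches of Rpl3 and Rpl3l hold none of these letters, that of Rps24 holds CTCTTT, and that of Rps10 holds both CTTTCC and CCGGAAG. RefSeq start regions (250 bases before to 50 after the start) were matched by symbol for 38 of the 44 members. CTTTCC at the start was found in 18.4% of these 38 and in 0.774% of all 33469 start regions, and CTCTTT in 15.8% and 0.669%; the 2 words can overlap. CCGGAAG on either strand was found in 23.7% of members and 8.75% of all, AAGATGGC, the letters of a YY1 site, on either strand in 10.5% and 3.17%, and the TATA word TATAAA on the sense strand in 7.89% and 8.80%. These matches describe letters only.

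Values are given as log2 signal, on which a difference of 1 is a doubling, and signals of different probe sets are not compared as amounts of RNA. An effect is how far the mean of a treated group lay from that of its matched controls, in log2 ± SE, from a limma fit across all 8740 probe sets, and the average effect is the mean over the 10 treated groups. Calls rest on Benjamini-Hochberg adjusted p-values over all probe sets with a threshold of 0.05. Because each array holds a pool, these p-values reflect how pools varied, and animals were not measured singly. All 44 members had a mean log2 signal above 7 and none had a value below the floor of 16 on the linear scale. Most were bright, 35 of the 44 within the top 10% of probe sets by mean signal. This matters on the angiotensin II and Ditpa arrays, where the 99th percentile of signal was 17174 to 17587 against 22492 to 25836 on the vehicle arrays, while the array medians ran from 1003 to 1084 over all 46 arrays. The bright end of the scale was thus lower on these 4 arrays than on their controls, and effects of these treatments were also computed after quantile normalization, which gives all arrays the same distribution. On the neonatal arrays the 99th percentile was 19049 to 21635, toward the low end of the 19141 to 30977 on other arrays. Neonatal effects of bright members therefore also depend on the scaling.

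In hypertrophy few members were called. On average over the 10 treated groups 3 of 44 rose and 0 fell by limma, beside 3.64% of all probe sets called higher and 1.57% called lower. At an unadjusted p below 0.05, 10 of the 44 members were higher, a larger share than the 10.3% of all probe sets. On the lower side 1 of the 44 stood against 5.55%. The 3 were Rpl3, Rps27l and Rps24. The median effect of the 44 was 0.04 log2, beside 0.0072 for all probe sets. Of the 44, 33 lay above 0, as did 53.6% of all probe sets. After quantile normalization 28 lay above 0, the median was 0.03, and 3 were again called, with Rplp0 in the place of Rps24. Rps24, which was close to the threshold as deposited (adjusted p = 0.0444), then had adjusted p = 0.0623. With the 5 models weighted equally, which raises the share of the hormone arrays, no member was called by limma, beside 1.02% of all probe sets. At an unadjusted p below 0.05, 4 of the 44 were then higher and 4 of the 44 lower, against 5.59% and 3.59% of all probe sets. Without the angiotensin II and Ditpa groups 8 members rose (Rpl3, Rpl4, Rpl6, Rplp0, Rps16, Rps24, Rps27l, Rps3), beside 4.77% of all probe sets called higher. The study's methods name a rank sum test on log fold changes without giving its second arm. With 18 control ratios as that arm, a choice made here, the test of the 26 hypertrophic ratios with Bonferroni correction called 1 member (Rpl3) beside 1.34% of all probe sets, and a signed rank test of the 26 ratios called Rpl3 and Rps27l beside 2.05%.

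**Figure D1:**
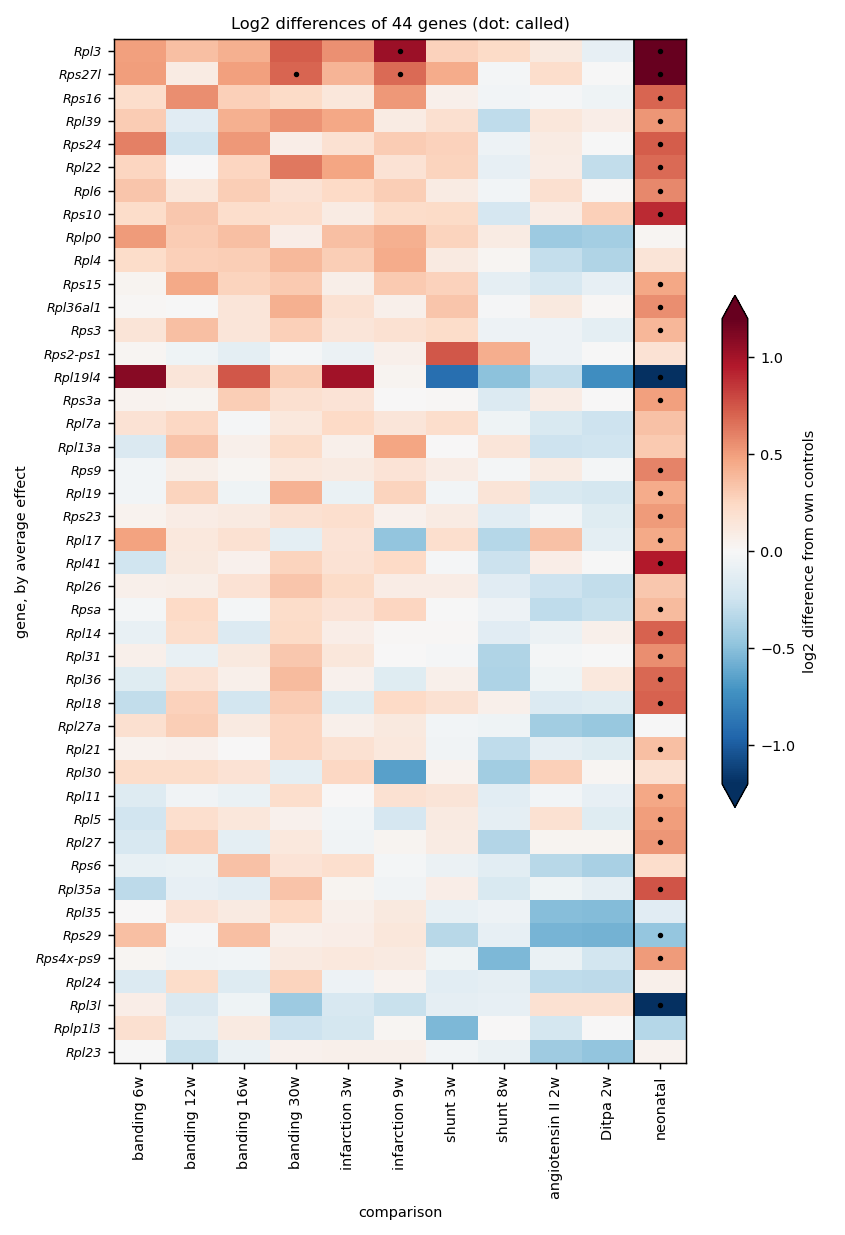
Log2 difference of each of the 44 genes (rows, ordered by average effect) from its own controls in the 10 treated groups and, right of the line, in the neonatal heart; red is higher, blue lower, colours saturate at 1.2, and a dot marks an adjusted p below 0.05. Calls in the treated groups lie in 2 rows, Rpl3 and Rps27l, while most rows are called in the neonatal column.

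Rpl3, a protein of the large subunit close to the site of peptide bond formation, had the highest average effect, 0.41 ± 0.0950 log2 (adjusted p = 0.00625), and was above its controls on 23 of the 26 hypertrophic arrays. Its log2 signal on these 26 ran from 11.82 to 13.70 with a median of 12.41, and on the 18 control arrays from 11.66 to 12.50 with a median of 11.89, so the 2 sets overlapped. The vehicle arrays, at 12.50 and 12.26, were the highest 2 of all controls. The infarcted ventricles had 13.70, 12.48, 12.77 and 11.90 at 9 weeks against 11.70 and 11.66 in their shams. All 4 lay above both shams, though far apart from each other, and the difference was 1.03 ± 0.257 (adjusted p = 0.0312). At 3 weeks they had 12.23, 12.19, 12.49 and 12.43 against 11.77 and 11.79, again with no overlap, a difference of 0.55 ± 0.257 that did not pass (adjusted p = 1.00). Banded hearts at 30 weeks had 12.85, 13.16, 12.45 and 12.60 against 11.92 and 12.16, also apart, at 0.73 ± 0.257 (adjusted p = 0.239). At 12 weeks one banded array, 11.92, lay between its shams at 11.98 and 11.90 while the other stood at 12.69. By model Rpl3 rose after banding, by 0.50 ± 0.144 (adjusted p = 0.0330), and after infarction, by 0.79 ± 0.182 (adjusted p = 0.0128). The banding call was lost after median centring (adjusted p = 0.0512) and without any 1 of 8 arrays, 4 banded and 4 sham (adjusted p = 0.0552 to 0.0966). The infarction call was lost without any 1 of the 4 infarction shams (adjusted p = 0.0540 to 0.0797) and with the second probe set (adjusted p = 0.0594). The difference was 0.25 ± 0.210 in shunted hearts, 0.11 ± 0.297 after angiotensin II (0.04 after quantile normalization) and -0.10 ± 0.297 after Ditpa (-0.12), none of which passed. A second probe set of Rpl3 gave 0.47 ± 0.108 on average (adjusted p = 0.00577). The infarction call at 9 weeks held for the chosen probe set alone, since the second one gave 0.73 ± 0.291 (adjusted p = 0.229), and it was lost without infarction replicate 1, the array at 13.70 (0.70, adjusted p = 0.105), without replicate 3 (adjusted p = 0.0652), without either of the 2 shams (adjusted p = 0.278 and 0.189), and with only the groups compared in the fit (adjusted p = 0.557).

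The probe set annotated to Rps27l, a gene induced by p53 that encodes a close paralog of the small-subunit protein Rps27, gave the lowest adjusted p. The study lists a ribosomal protein S27 without a probe set, and this is the one probe set annotated here to Rps27 or Rps27l. Whether it reads Rps27, Rps27l or both cannot be told apart here. Its average effect was 0.35 ± 0.0662 log2 (adjusted p = 0.000784), above its controls on 23 of 26 arrays, with hypertrophic arrays from 10.79 to 12.04 (median 11.46) and control arrays from 10.72 to 11.52 (median 11.06). Banded hearts at 30 weeks had 11.73, 11.83, 11.49 and 11.98 against 11.04 and 11.08, and infarcted ones at 9 weeks had 12.04, 11.36, 11.63 and 11.07 against 10.84 and 10.85. In both groups every array lay above both shams. The differences were 0.70 ± 0.179 (adjusted p = 0.0430) and 0.68 ± 0.179 (adjusted p = 0.0396). Neither passed after quantile normalization (adjusted p = 0.0593 and 0.0513), nor with only the groups compared in the fit (adjusted p = 0.138 and 0.496). The call at 30 weeks was lost when any 1 of 27 of the 46 arrays was left out, and that at 9 weeks without infarction replicate 1 or 3 (adjusted p = 0.156 and 0.0986) or either sham (adjusted p = 0.338 and 0.211). The high values at 9 weeks sat on the same arrays as those of Rpl3, replicate 1 first and replicate 3 next, and replicate 4 was the lowest for both. This order was not particular to the pair. Rps9, Rpl11 and Rps16 had it too, with replicate 1 at 13.78, 14.37 and 14.51 and replicate 4 at 12.75, 13.46 and 13.42, while Rps24 and Rpl30 did not. Over all 46 arrays the median correlation of a member with the mean of the others was 0.665 (0.465 after quantile normalization). By model Rps27l rose after banding, by 0.45 ± 0.100 (adjusted p = 0.00505), and after infarction, by 0.54 ± 0.127 (adjusted p = 0.0140). With only the groups compared in the fit, the infarction calls of Rpl3 and Rps27l were lost (adjusted p = 0.191 and 0.130), and that of Rps27l also without 3-week sham replicate 2 or either 9-week sham (adjusted p = 0.159, 0.0819 and 0.0561). In shunted hearts Rps27l was at 0.21 ± 0.146, after angiotensin II at 0.21 ± 0.207 (0.16 after quantile normalization) and after Ditpa at -0.006 ± 0.207 (-0.015). The shunt shams themselves differed by time, 11.14 and 11.12 at 3 weeks and 11.52 and 11.45 at 8 weeks.

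**Figure D2:**
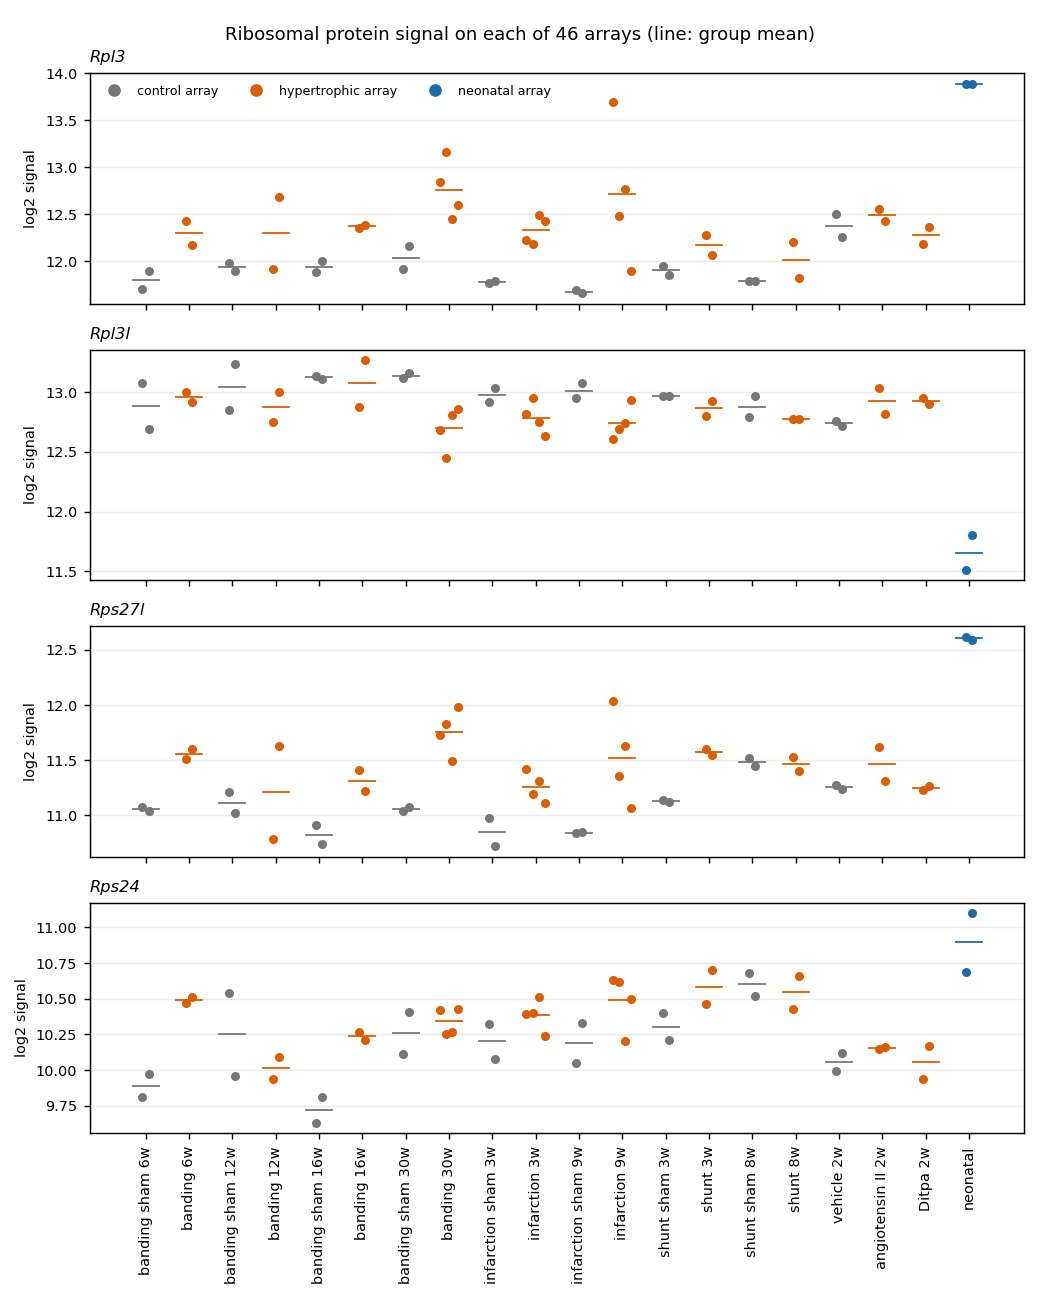
Log2 signal of Rpl3, Rpl3l, Rps27l and Rps24 (one panel each) on every array, by group; a point is an array, a short line the mean of its group, grey controls, orange hypertrophic hearts and blue neonatal hearts. Rpl3 and Rps27l were highest in the neonatal hearts, at 13.89 and at 12.62 and 12.59, and Rpl3l was lowest there, at 11.51 and 11.80.

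Rps24, a small-subunit protein, had a smaller average effect of 0.18 ± 0.0530 log2 (21 of 26 arrays higher), with hypertrophic arrays from 9.94 to 10.70 and control arrays from 9.63 to 10.68. The 2 ranges were nearly the same, and its differences were uneven: 0.60 ± 0.166 after 6 weeks of banding and 0.52 ± 0.166 after 16 weeks, -0.23 ± 0.166 after 12 weeks, and -0.06 ± 0.166 with the shunt at 8 weeks, none of which passed. Leaving out any 1 of 27 of the 46 arrays took its average call away. Rpl6, a large-subunit protein that the study also lists, was above its controls on 22 of 26 arrays, by 0.17 ± 0.0547 (adjusted p = 0.0587), just short of the threshold; its second probe set gave 0.29 ± 0.0716 (adjusted p = 0.00988), above controls on 23 arrays. Rpl3, Rpl6 and S27 were chosen by the study on these same arrays, so their direction here is not independent evidence. Rplp0, the protein at the base of the ribosomal stalk and a common reference gene in PCR, rose after banding by 0.31 ± 0.0857 (adjusted p = 0.0243), but by 0.15 without passing after quantile normalization (adjusted p = 0.104), and the call was also lost after median centring (adjusted p = 0.0518) and without any 1 of 7 arrays of this model (adjusted p = 0.0505 to 0.101). Rpl4, part of the wall of the exit tunnel, rose after banding by 0.30 ± 0.0894 (adjusted p = 0.0445), a call that was lost when any 1 of 26 of the 46 arrays was left out. The lowest average effect was that of the large-subunit protein Rpl23, -0.12 ± 0.0561 (9 of 26 arrays higher, adjusted p = 0.292).

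Rpl3l, the muscle paralog of Rpl3, lay below its controls in 7 of the 8 surgical groups without passing in any. It was above its controls on 7 of 26 arrays, at -0.09 ± 0.0486 log2 on average (adjusted p = 0.400). Its values at 30 weeks of banding, 12.68, 12.45, 12.81 and 12.86, all lay below both shams at 13.12 and 13.16, a difference of -0.44 ± 0.132 (adjusted p = 0.114). At 9 weeks after infarction 12.61, 12.69, 12.74 and 12.94 stood against 12.95 and 13.08, also without overlap, at -0.27 ± 0.132 (adjusted p = 0.363). With angiotensin II and Ditpa Rpl3l was at 0.19 ± 0.152 in each (0.13 and 0.19 after quantile normalization). The second Rpl3l probe set had a larger average difference, -0.28 ± 0.0942, which did not pass either (adjusted p = 0.0881).

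Group by group, calls were few. At 30 weeks of banding 1 member rose (Rps27l) and 0 fell, beside 0.95% of all probe sets higher and 0.172% lower. At an unadjusted p below 0.05, 11 of the 44 members were higher there, a larger share than the 8.02% of all probe sets. On the lower side 1 of the 44 stood against 2.70%. At 9 weeks of infarction 2 rose (Rpl3, Rps27l) and 0 fell, beside 1.69% and 0.229%, with 7 of the 44 higher and 3 of the 44 lower at an unadjusted p against 10.5% and 3.28%. In the other 8 groups no member passed by limma, where 0.652%, 0.355% and 0.709% of all probe sets were called at 6, 12 and 16 weeks of banding, 0.206% at 3 weeks of infarction, 0.0458% with the shunt at 8 weeks, and 0% with the shunt at 3 weeks, angiotensin II or Ditpa. At an unadjusted p below 0.05 these 8 groups had between 0 and 5 members higher and between 0 and 7 lower, where at most 6.43% of all probe sets were higher and at most 6.41% lower. The 6 of 44 members lower with angiotensin II and the 7 of 44 lower with Ditpa were larger shares than the 2.19% and 2.68% of all probe sets. By model, banding called 4 members higher and 0 lower beside 3.28% and 1.98% of all probe sets, infarction 2 higher and 0 lower beside 1.70% and 0.252%, and the other models none, beside 0.0458% of all probe sets called with the shunt and 0% with each hormone.

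The medians followed no single course. They were 0.04, 0.13, 0.11 and 0.22 log2 at 6, 12, 16 and 30 weeks of banding, 0.13 and 0.12 at 3 and 9 weeks of infarction, 0.09 and -0.10 at 3 and 8 weeks of shunt, -0.06 with angiotensin II and -0.11 with Ditpa. The medians over all probe sets stayed between -0.0074 and 0.025. After quantile normalization the sign turned at 6 weeks of banding (-0.0072), at 9 weeks of infarction (-0.021) and with angiotensin II (0.0072). At 12, 16 and 30 weeks of banding the medians were then 0.09, 0.13 and 0.13, with 30, 35 and 37 of 44 members above 0. Small-subunit genes were on the upper side in both surgical models with calls. All 11 were above 0 after banding and after infarction, with medians of 0.19 and 0.16 and 0 called, against 23 and 19 of the 26 large-subunit genes, with medians of 0.12 and 0.09 and 3 and 1 called. Of all probe sets, 56.4% lay above 0 after banding and 52.3% after infarction. After quantile normalization 11 and 9 small-subunit genes were above 0, with medians of 0.10 and 0.047, and 20 and 11 large-subunit genes, with medians of 0.07 and -0.032. Shares of all probe sets above 0 after quantile normalization are not given here. The difference between subunits was not tested.

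**Figure D3:**
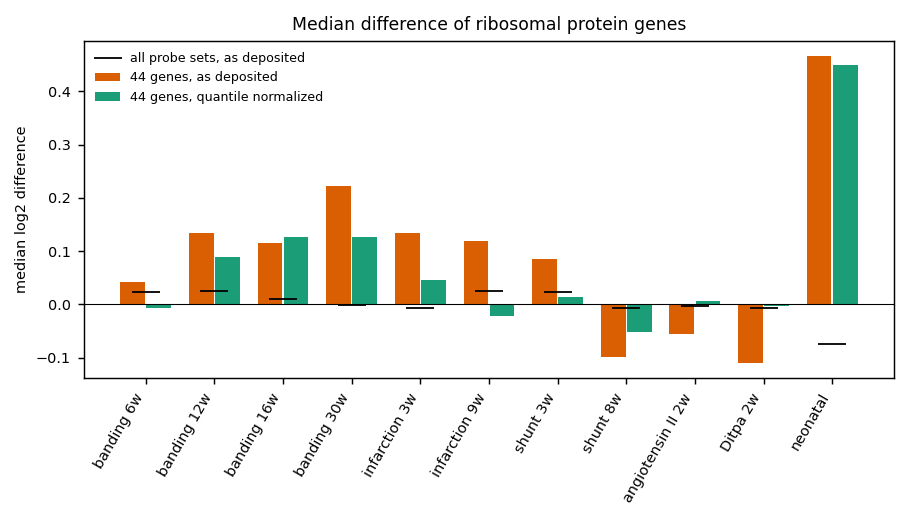
Median log2 difference of the 44 genes in each comparison (bars from 0), as deposited in orange and after quantile normalization in green; black marks give the median of all probe sets. The neonatal median, 0.47 as deposited and 0.45 after quantile normalization, exceeds all those of the treated groups, and the negative medians with angiotensin II and Ditpa are near 0 after normalization.

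With angiotensin II and Ditpa the differences went with brightness. Over the 8 members with the highest signal (Rps29, Rplp0, Rpl35, Rpl27a, Rpl23, Rpl24, Rps3, Rpl7a) the median was -0.42 log2 with angiotensin II and -0.43 with Ditpa, and over the other 36 it was -0.03 and -0.08. After quantile normalization the 8 had -0.041 and -0.0071. The 13 cardiomyocyte markers measured, many of them among the brightest on a heart array, moved in the same way, with medians of -0.61 and -0.61 as deposited and -0.021 and -0.019 after quantile normalization. Rps29, a zinc-binding protein of the small subunit, was at 14.19 and 14.24 with angiotensin II and at 14.21 and 14.21 with Ditpa, all below the vehicle arrays at 14.88 and 14.67, differences of -0.56 ± 0.178 and -0.57 ± 0.178 (adjusted p = 0.557 and 0.436). After quantile normalization these were -0.042 and -0.013. Both treatments share the vehicle arrays, so the likeness of the pair is partly built in. The difference between the 5 models was called for 0 members by the moderated F test, beside 0.275% of all probe sets, and 7 members had an unadjusted p below 0.05. The lowest adjusted p was 0.172, for Rpl19l4, followed by 4 of the brightest members and Rpl4.

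Rpl19l4, named as a copy of the large-subunit gene Rpl19, was the most variable member. Its sham arrays alone ran from 9.03 at 6 weeks of banding to 12.46 at 3 weeks of shunt. It was at 1.09 ± 0.380 after 6 weeks of banding (10.60 and 10.87 against 9.03 and 10.26) and 1.01 ± 0.329 after 3 weeks of infarction (11.07, 11.81, 12.73 and 11.75 against 11.06 and 10.59). With the shunt at 3 weeks it was at -0.91 ± 0.380 (11.75 and 11.24 against 12.34 and 12.46). None of these passed (adjusted p = 0.290, 0.457 and 0.393). Rpl19 itself, read by another probe set, was at 0.05 ± 0.0622 on average. The 2 pseudogene symbols were not called in any treated group; Rps2-ps1 had hypertrophic arrays from 7.92 to 10.28 against controls from 8.30 to 9.08.

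In the neonatal heart the ribosomal protein genes rose widely. Of the 44, 28 rose, 3 fell and 13 did not pass, beside 15.5% of all probe sets called higher and 17% called lower. Their median difference was 0.47 log2, against -0.07 for all probe sets. On 26 members both neonatal arrays lay above all 18 adult controls, which was so for 12.4% of all probe sets, and 23 of these were called. Of the 26 large-subunit genes 16 rose, with a median of 0.46, and of the 11 small-subunit genes 9 rose and 1 fell, with a median of 0.49. After quantile normalization 28 again rose, 24 of them the same genes, and the median was 0.45. Shares of all probe sets called higher with that scaling, and in the fits that follow, are not given here. With a single neonatal array in the fit, taken to vary like the other groups, 16 members rose without replicate 2 and 14 without replicate 1.

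Rpl3 led, with 13.89 on both neonatal arrays against a highest control of 12.50, a difference of 1.97 ± 0.221 (adjusted p = 2.33e-08) and of 1.87 after quantile normalization. Its second probe set rose by 2.61 ± 0.250, from a control median of 11.56 to 14.08 and 14.16. Rpl3l had 11.51 and 11.80, below the lowest control of 12.69, a difference of -1.32 ± 0.113 (adjusted p = 8.53e-11) and of -1.42 after quantile normalization. Here the 2 probe sets disagreed in size: the second one fell from a control median of 12.19 to 7.58 and 7.63, a log2 difference of -4.56 ± 0.219. Both paralogs were thus outside the range of all 18 adult controls on both of their probe sets, in opposite directions. Rps27l had 12.62 and 12.59 against a highest control of 11.52, at 1.53 ± 0.154 (adjusted p = 2.60e-09).

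Next came Rpl41, the shortest ribosomal protein, with 10.54 and 10.64 against controls from 9.35 to 10.08 (0.95 ± 0.138, adjusted p = 2.38e-06), and the small-subunit protein Rps10, with 13.80 and 13.75 against 12.55 to 13.09 (0.89 ± 0.150, adjusted p = 2.24e-05). Neither overlapped the adult controls. Rps24 had 10.69 and 11.10 against 9.63 to 10.68 (0.73 ± 0.123), so one of its neonatal arrays lay only just above the highest control. The large-subunit proteins Rpl14 and Rpl18 rose by 0.71 ± 0.125 and 0.71 ± 0.121, and Rpl6 by 0.58 ± 0.127 (adjusted p = 0.000697). Rpl5 and Rpl11, which bind 5S ribosomal RNA together, rose by 0.50 ± 0.167 (adjusted p = 0.0201) and 0.47 ± 0.145 (adjusted p = 0.0130). The 2 neonatal values of Rpl11 lay above all controls, and those of Rpl5, 9.60 and 9.85, within the control range of 8.54 to 9.94. Both Rpl5 values stood above its banding shams (8.54 to 9.18) and vehicle arrays (8.92 and 9.51). They lay among its shunt and infarction shams (9.42 to 9.94). Rpl17, also called higher, was split in a similar way. Its banding shams ran from 8.57 to 9.41 and its shunt and infarction shams from 9.81 to 10.52, beside neonatal values of 9.78 and 10.26. Rpsa, also known as the laminin receptor precursor, rose by 0.38 ± 0.112 (adjusted p = 0.00871), with 14.16 and 14.01 above all controls. Rps6, the small-subunit protein that S6 kinase phosphorylates, was at 0.21 ± 0.126 and did not pass (adjusted p = 0.211); its second probe set rose by 0.94 ± 0.163. Of the 10 members with CTTTCC or CTCTTT at the start 7 rose, and of the 28 others with a start region 19 rose. The remaining members that rose did so by 0.36 to 0.75 log2.

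**Figure D4:**
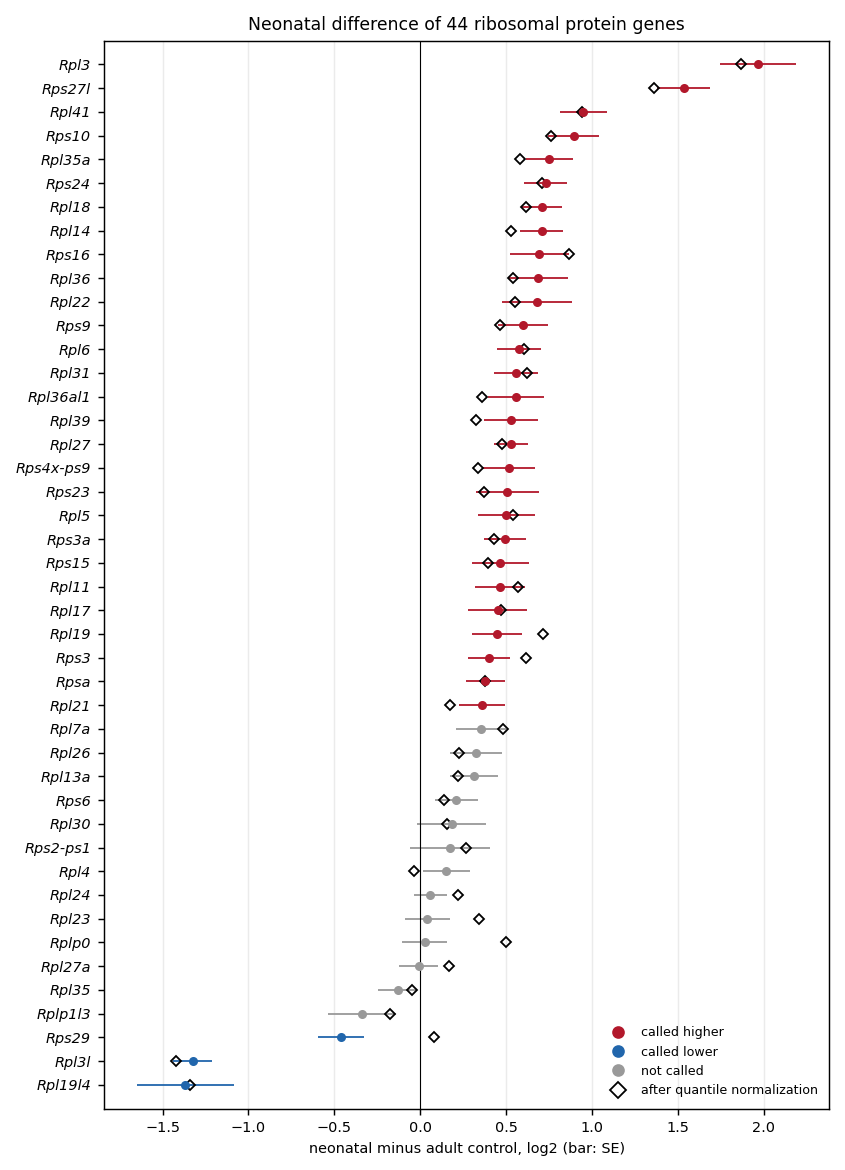
Neonatal minus adult control difference in log2 (horizontal axis) for the 44 genes (vertical axis), with SE bars; red points were called higher, blue called lower and grey not called, and open diamonds give the value after quantile normalization. Rpl3 and Rps27l stand highest at 1.97 and 1.53, Rpl3l and Rpl19l4 lowest at -1.32 and -1.37, and the diamond of Rps29 lies above 0.

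The other 2 members that fell did so less clearly than Rpl3l. Rpl19l4 had 9.89 and 9.39 in the neonatal hearts, a difference of -1.37 ± 0.283 (adjusted p = 0.000339), but its controls ran from 9.03 to 12.46 and overlapped both values. Rps29 had 14.59 and 14.33 against controls from 14.36 to 15.30, overlapping on 1 array, and its fall of -0.46 ± 0.133 (adjusted p = 0.00742) turned to 0.079 after quantile normalization (adjusted p = 0.319) and did not pass without neonatal replicate 2 (-0.33, limma adjusted p = 0.211). The brightest members as a set were near the adult level as deposited, with a median of 0.03 over the 8, and at 0.28 after quantile normalization. Next to Rps29, Rplp0 moved most among them, from 0.03 ± 0.132 (14.57 and 14.31 against a control median of 14.42) to 0.50 (adjusted p = 2.66e-05), and Rpl23, Rpl24 and Rpl7a were also called higher then. Against this, Rpl21, Rpl39, Rps23 and Rps4x-ps9 lost their calls. Where a gene had 2 or more probe sets, 15 of 20 pairs with the chosen probe set agreed in the sign of the neonatal difference, and 16 of 20 in that of the average effect, with a median gap of 0.39 and 0.07 log2.

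Other genes of the translation machinery were listed for comparison. In the neonatal heart, of 5 measured genes of translation elongation, the kinase Eef2k among them, 1 rose and 1 fell. Eef1a1, the general form of elongation factor 1 alpha, rose (0.50 ± 0.150), and Eef1a2, its muscle and neuron form, fell (-0.42 ± 0.128). The median was 0.04 (-0.087 after quantile normalization). Of 16 genes of translation initiation 6 rose and 0 fell, with a median of 0.11, led by Eif4ebp1, the inhibitor of cap binding under mTOR (0.95 ± 0.105). Beside initiation factors this list holds that inhibitor and the kinases Eif2ak1, Eif2ak2 and Eif2ak3. Of 11 ribosome biogenesis genes 6 rose and 1 fell, with a median of 0.39: the nucleolar proteins Nop58 (1.31 ± 0.174) and Ncl (1.14 ± 0.203) rose most, and Polr1a, the large subunit of RNA polymerase I, fell (-0.42 ± 0.0854). Rack1 and Naca, both bound to the ribosome, rose by 0.99 ± 0.136 and 0.54 ± 0.173. Among 9 growth signalling genes 3 rose and 2 fell, and among 14 genes of the mitochondrial ribosome 3 rose and 4 fell, with medians of 0.25 and -0.07. In hypertrophy, the average effect called 0 of 5, 1 of 16, 1 of 11, 0 of 2, 0 of 9 and 1 of 14 genes of these lists: Eif2ak2, a kinase that inhibits initiation (0.22 ± 0.0596), and Dkc1, of the pseudouridylation complex (0.17 ± 0.0499), rose, and Mrpl58 fell (-0.26 ± 0.0454).

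Markers of several cell types also moved in these comparisons. In bulk RNA, fewer cells of a type and less RNA per cell cannot be told apart. Of 10 fibroblast markers 7 rose after banding and 7 after infarction, with median effects of 0.45 and 0.81 log2. With the shunt, angiotensin II and Ditpa 0 rose, with medians of 0.26, 0.03 and -0.04. Hardly any probe set of the whole array was called in these models, so the lack of calls there does not link gene lists. The log2 of the summed linear signal of the fibroblast markers was 15.06 to 15.95 on control, 15.28 to 16.77 on hypertrophic and 16.05 to 16.59 on neonatal arrays. Such a sum is weighted toward bright probe sets. The brightest of these, Dcn, was at 0.0079 on average in hypertrophy and at -0.98 in the neonatal hearts. In the neonatal hearts 6 fibroblast markers rose and 1 fell (median 1.40), 6 of 6 proliferation genes rose (median 0.97) and 12 of 13 cardiomyocyte markers fell (median -0.65 as deposited, -0.02 after quantile normalization). Of 3 atrial myocyte markers 3 rose there (median 1.39), and 3 of 4 lymphocyte and 2 of 7 macrophage markers fell (medians -0.29 and -0.15). The 3 atrial markers, Myl4, Myl7 and Nppa, also belong to a list of 9 fetal and hypertrophy genes. Of that list 6 rose and 1 fell in the neonatal hearts, and the 3 atrial markers are among those 6. Whether atrial cells had a part in the rise was not tested. Macrophage markers rose for 2 of 7 after infarction and 1 of 7 after banding, and smooth muscle markers for 1 of 5 and 2 of 5. Cardiomyocyte markers were present on all arrays, with a log2 of the summed linear signal of 17.77 to 19.08 in adult hearts, and no marker of any list was at the floor. The part of these shifts in the ribosomal protein results was not tested.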

How the data were processed

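Per the study's methods, the authors normalised the arrays (Affymetrix RGU34A) by the invariant rank method of Li and Wong in dChip and computed model-based values from perfect-match probes. The deposited values are intensity on a linear scale, 1 per probe set and array, and were taken to be these, since the array medians lie close together. Of the 8740 probe sets, the annotation used here gives 7006 a single symbol and 308 several. Array intensity carries no read depth, and the number of arrays per group, mostly 2, limits the precision.

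Here values below 16 were raised to 16 and put on the log2 scale. limma 3.58.1 (R 4.3.3) was run on all 46 arrays with 1 coefficient for each of 20 groups (lmFit, contrasts, eBayes), with Benjamini-Hochberg adjustment over 8740 probe sets and a threshold of 0.05. The difference between the 5 models was tested by a moderated F. The fit was tested on simulated data. Full values were given for members called in a comparison (at most the 8 with the lowest adjusted p), for those the study lists, for those with the highest and lowest effect, and for paralogs; the others named serve as examples by role and were chosen after their values were seen. The members and gene lists were chosen with earlier results of these data known. Alternatives were 2 other scalings, floors of 1 and 64, a filter at a mean log2 of 7, other probe sets of a gene, array weights, other samples in the fit, leaving out each array, other weights of the groups, and rank tests. The labels give Ditpa as an infusion and the methods as injections. The vehicle, angiotensin II and Ditpa arrays share replicate numbers, but arrays of the same number did not deviate together (r = -0.043 to -0.083 over probe sets), so they were not treated as pairs.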

Additional observations from a re-analysis of the deposited data

Results flagged for a closer look

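In some genes every array of one model lay above the mean of its controls and every array of another model below it. The share of all probe sets that do so is not given here. With 2 arrays in a group such splits can arise by chance. The gaps below are differences between the 2 model effects in log2. Pair by pair they were not tested; the moderated F over all 5 models called none of these genes. Every pair below sets angiotensin II or Ditpa against another model. The angiotensin II and Ditpa arrays share 2 vehicle arrays and have a lower bright end of the signal scale, so the gaps after quantile normalization are given too.

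For Rpl3, Ditpa was below while infarction (gap 0.89), the shunt (0.35) and angiotensin II (0.21) were above; after quantile normalization the gaps were 0.85, 0.34 and 0.16. Rpl3l ran the other way: angiotensin II was above while infarction (gap 0.42) and the shunt (0.29) were below, and Ditpa was above against the same pair (0.42 and 0.29). Normalized, these were 0.43, 0.24, 0.50 and 0.30. Rpl4 was above after banding and below with angiotensin II (gap 0.58) or Ditpa (0.66), and above after infarction against the same treatments (0.65 and 0.73). Normalized, these were 0.61, 0.63, 0.60 and 0.61. Rplp0 was above after infarction and below with angiotensin II (0.83) or Ditpa (0.80), and above with the shunt against both (0.62 and 0.59). Normalized, the gaps shrank to 0.27, 0.14, 0.30 and 0.17, and the Ditpa effect turned to 0.083, so that infarction, shunt and Ditpa were all above 0. Rpl18 was above with the shunt and below with angiotensin II (0.28) or Ditpa (0.26), gaps of 0.25 and 0.13 after normalization.

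Within the groups of 4 arrays no array of the 14 genes given in full stood apart by Dixon's criterion, in 42 sets tested, where chance alone marks about 5%.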

How the results depend on the processing

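The count of members with a higher average effect, 3 as given, was 0 with the 5 models weighted equally, 8 without the angiotensin II and Ditpa groups, 1 by the rank sum test (Rpl3) and 2 to 6 when 1 array was left out. By the rank tests the call of Rps27l was kept with the signed rank test and lost with the rank sum test; the rank sum count of 1 member became 2 with the signed rank test. Calls over the 10 treated groups, 3 as given, were 1 after quantile normalization, 1 after median centring, 21 with array weights and 0 to 7 without 1 array: 0 without infarction sham 9 weeks replicate 5 or 6, 1 without infarction 9 weeks replicate 3, 6 without banding sham 6 weeks replicate 4, 7 without infarction 9 weeks replicate 4. Calls over the 5 models, 6 as given, were 3 after median centring, 17 with array weights, 2 with only the groups compared in the fit and 3 to 16 without 1 array, the 16 without banding 12 weeks replicate 1. Members higher in the neonatal heart, 28 as given, were 14 to 29 without 1 array, and members lower 2 to 3. The difference between models, 0 members, was called for 6 with array weights, 3 by the methods' ANOVA and 0 to 3 without 1 array. The causes were not tested. Shares of all probe sets called are given above for some of these settings only. For the other settings, a change in the member counts cannot be told apart from a change in calls over the whole array. Rps29 alone reversed, to 0.079 in the neonatal heart after quantile normalization.

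With the replicate block for the vehicle, angiotensin II and Ditpa arrays the calls were 3 for the average effect, 2 over the groups and 5 over the models, with 28 higher and 3 lower in the neonatal heart; Rps27l at 30 weeks of banding (adjusted p = 0.0505) and Rpl4 after banding (adjusted p = 0.0510) lost their calls. With 2 arrays in most groups, small differences can be missed.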

Other observations

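The 40 ribosomal protein probe sets that match several symbols, and so belong to no single gene, were set beside the members. In the neonatal heart 19 of the 40 were higher and 1 lower, with a median of 0.35 log2 (0.40 after quantile normalization, with 23 higher and 1 lower). Of the 44 members 28 were higher and 3 lower there, with a median of 0.47. The probe set shared by Rps7 and a pseudogene rose most, by 1.39 ± 0.173 (adjusted p = 1.74e-07), and another with the same symbols was at 0.10 ± 0.110. For the average effect 1 of the 40 was called, shared by Rps19 and copies of it, at 0.29 ± 0.0735 (23 of 26 arrays higher, adjusted p = 0.0147). With angiotensin II and Ditpa the medians of the 40 were -0.25 and -0.24 as deposited, lower than the -0.06 and -0.11 of the members. After quantile normalization they were -0.03 and -5.6e-04, with 0 called by limma on either scale.

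A second probe set of Rpsa rose by 0.77 ± 0.160 at 9 weeks after infarction (limma adjusted p = 0.0101), where the chosen one was at 0.26 ± 0.130 (adjusted p = 0.375).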
